A study of Mus musculus with 9 samples.

Results

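The genes described here code for cell surface proteins that hold nerve cells together at contacts and synapses, most of them through leucine-rich repeats. Members were chosen by symbol: Lrrn, Lrrtm, Slitrk, Lingo, Flrt, Lrfn, Nlgn (neuroligin), Nrxn (neurexin), Cntn (contactin) and Cntnap (contactin-associated protein) followed by a number, together with Lrrc4, Lrrc4b and Lrrc4c. Every such symbol was taken whatever its values, but the choice was made with earlier results of these data known. The rule found 34 genes in 37 rows, of 14771 named genes in the table. RefSeq lists 48 mouse symbols of this form, and the 14 without a row, among them Cntnap2, Lrrtm1 and Lrrn3, were not analysed here.

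RNA sequencing covered 9 libraries in 3 groups of 3. AG are astroglia of the strain C57BL/6 labelled p53 DN and Nf1 shRNA, BS are brainstem tumour cells and OB are olfactory bulb tumour cells, and both tumour groups come from a 129;C57BL/6 mix labelled Foxr2 overexpression and p53 cko. Every group thus carries a change of p53, of a different kind in AG than in the tumours, and the Nf1 shRNA is in AG alone, so that tumour, strain and genotype cannot be told apart in a comparison with AG. The labels give no ages, promoters or vectors, do not say what the numbers in the tumour titles mark, and do not say whether libraries came from separate animals or cultures. P-values therefore measure the spread between these libraries, which may be technical.

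Leucine-rich repeat adhesion proteins and neuroligins sit mainly in the postsynaptic membrane and reach across the cleft to neurexins or to receptor tyrosine phosphatases of the LAR type, and these pairs organise the synapse on both sides. Contactins are immunoglobulin proteins anchored by a lipid tail that pair with Cntnap proteins along axons and beside nodes of Ranvier. Several of these genes are also active outside neurons: cells of the oligodendrocyte lineage form synapses with axons, and neuroligin-3 shed from neurons and oligodendrocyte precursors is known to promote glioma growth.

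Values are normalized reads, that is, reads divided by 1 size factor per library, and library totals ran from 11300273 to 19868282 reads. The gene named in the tumour labels, Foxr2, was near 0 in the astroglia (0, 0.986 and 0 normalized reads) and reached 7377 to 12567 in BS and 4505 to 6814 in OB. Across the 10576 genes tested, log2 values correlated at 0.992 to 0.993 between AG libraries, 0.886 to 0.959 between BS libraries and 0.861 to 0.943 between OB libraries (Pearson's r, across genes), so that tumour libraries vary more than the AG libraries with which they share 1 estimate of spread. OB_257 and BS_287 had the lowest mean correlation with the other tumour libraries, at 0.855 and 0.882, against 0.916 to 0.923 for the other 4. Genes with several RefSeq transcripts tend to have low values in this table (median row value 166.6 with 1 transcript, 9.52 with 2 and 5.33 with 3 or more), and 14 of the 34 members are such genes: low values of such members cannot be read as low expression, while their differences between groups were tested as for other genes.

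Of the 34 members, 17 were called higher in both kinds of tumour cell than in astroglia, by 2.097-fold for Nlgn2 in BS and by at least 1003-fold for Lrrn1 in OB. Over the whole table, 1241 of the 10576 genes tested were called higher in both. A filter of 10 normalized reads in 3 libraries left 29 members to test. Of these, 18 were higher in BS than in AG and 1 was lower (limma on log2(normalized reads + 1), adjusted p under 0.05), where 15.6% and 19.5% of all genes tested were called higher and lower. In OB, 18 were higher than in AG and 1 was lower, where 16.0% and 19.0% of all genes were. The median log2 difference of the tested members was 4.10 in BS and 3.89 in OB, against -0.03 and -0.01 over all genes. With the 6 tested members that had 0 reads in AG set at their lower bound, a ratio of group means, the medians were 4.06 and 3.20. Libraries did not overlap for 19 tested members that were above AG and 2 below it in BS, where 26.7% and 31.8% of all genes were so separated, and for 21 above and 2 below in OB, where 27.5% and 30.8% were. Both comparisons use the same 3 AG libraries, and 17 members were higher in both: Lrrn1, Lrrn2, Lrrn4, Lrrc4, Lrrc4b, Lrrtm3, Slitrk1, Slitrk3, Slitrk5, Lingo4, Lrfn1, Nlgn1, Nlgn2, Nlgn3, Nrxn2, Cntn1 and Cntn3.

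Rescaling by the upper quartile moved the median of all genes to 0.18 in both comparisons and the split of calls from 1652 higher and 2060 lower to 2135 and 1674 in BS, and from 1687 and 2008 to 2158 and 1675 in OB. The counts of members called higher under that scaling were 19 and 18. Without BS_287 and OB_257, the libraries that stand apart, 20 members were higher in each comparison. The share of all genes called against AG in that fit is not given here, so the count cannot be read as particular to the members. Leaving out both libraries also raised the calls of OB against BS over all genes from 0 to 69.

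**Figure D1:**
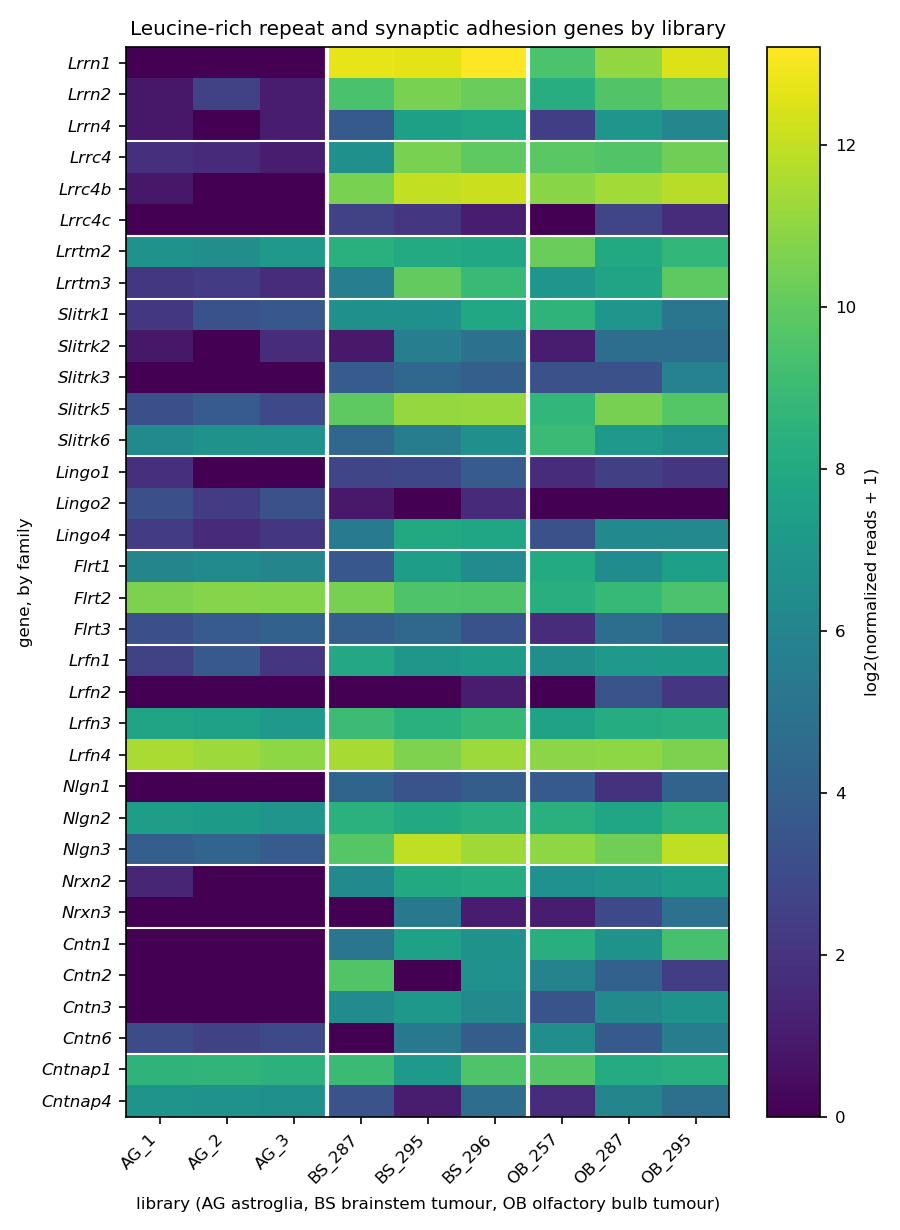
Colour shows log2(normalized reads + 1) of the 34 members (rows, grouped by family) in the 9 libraries (columns, grouped as AG, BS and OB). AG libraries are near 0 for most of the Lrrn, Lrrc4, Slitrk, Nrxn and Cntn genes and high for Lrfn4 and Flrt2, and Lrrn1, Lrrc4b and Nlgn3 are high in the tumour libraries.

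Lrrn1 and Lrrc4b carried the largest log2 differences of the group. Lrrn1 codes for a leucine-rich repeat neuronal protein of neural progenitors and boundaries in the embryonic brain. It had 0 reads in all 3 AG libraries, 6808, 6557 and 9461 normalized reads in BS_287, BS_295 and BS_296, and 707, 2125 and 5919.8 in OB_257, OB_287 and OB_295, an order kept in the sentences that follow. Against a level of 3 reads per AG library, the BS mean (7608 ± 1609, SD, n = 3) was at least 2616-fold higher and the OB mean (2917 ± 2695, SD, n = 3) at least 1003-fold higher (adjusted p 4.31e-06 and 9.14e-06, limma). Every BS library lay above every OB library. Lrrc4b, which codes for NGL-3, a postsynaptic ligand of LAR-type phosphatases, had 0.834, 0 and 0 normalized reads in AG, 1479, 4061 and 4588 in BS and 1872, 2681 and 3523 in OB. Its log2 difference from AG was 11.27 ± 0.49 (SE) in BS and 11.06 ± 0.49 in OB (adjusted p 2.14e-06 and 2.33e-06, limma). With 1 read in AG the ratio of reads itself is loose, 10187 with an exact 95% interval of 1828 to 402389 in BS, an interval that covers counting error only.

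The promoters of these genes and of Lrrc4, which rose with them, and of Flrt2, which did not, are shown so that their sequence can be set beside the values. Each is the 300-base window from 250 bases before to 50 after the start in RefSeq's annotation of GRCm38.p6, which is a later build than the mm9 of the table, and is written 5′ to 3′ on the strand of the gene. Capitals mark matches on either strand to the E-boxes CAGCTG and CACGTG and the SOX-type motif ACAAAG. Lrrn1 lies at chr6:107529476-107529775 on the plus strand, Lrrc4b at chr7:44442237-44442536 on the plus strand, Lrrc4 at chr6:28831698-28831997 on the minus strand and Flrt2 at chr12:95691976-95692275 on the plus strand.
Lrrn1: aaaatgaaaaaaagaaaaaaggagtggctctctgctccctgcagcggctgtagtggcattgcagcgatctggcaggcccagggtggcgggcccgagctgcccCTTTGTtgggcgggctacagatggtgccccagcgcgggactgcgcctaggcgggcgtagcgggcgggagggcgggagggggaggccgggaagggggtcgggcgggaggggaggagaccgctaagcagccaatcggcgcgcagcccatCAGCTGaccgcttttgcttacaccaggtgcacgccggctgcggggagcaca
Lrrc4b: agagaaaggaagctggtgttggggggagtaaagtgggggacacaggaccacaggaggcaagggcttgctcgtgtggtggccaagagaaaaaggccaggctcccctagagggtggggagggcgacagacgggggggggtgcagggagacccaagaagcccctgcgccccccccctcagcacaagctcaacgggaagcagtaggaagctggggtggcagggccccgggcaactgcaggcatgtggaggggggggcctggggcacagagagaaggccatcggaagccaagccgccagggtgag
Lrrc4: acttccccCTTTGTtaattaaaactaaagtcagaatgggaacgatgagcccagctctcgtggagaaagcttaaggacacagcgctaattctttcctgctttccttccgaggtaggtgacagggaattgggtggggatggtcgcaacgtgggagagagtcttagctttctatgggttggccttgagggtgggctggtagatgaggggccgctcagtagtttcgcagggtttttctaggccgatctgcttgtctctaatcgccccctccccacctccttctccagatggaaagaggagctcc
Flrt2: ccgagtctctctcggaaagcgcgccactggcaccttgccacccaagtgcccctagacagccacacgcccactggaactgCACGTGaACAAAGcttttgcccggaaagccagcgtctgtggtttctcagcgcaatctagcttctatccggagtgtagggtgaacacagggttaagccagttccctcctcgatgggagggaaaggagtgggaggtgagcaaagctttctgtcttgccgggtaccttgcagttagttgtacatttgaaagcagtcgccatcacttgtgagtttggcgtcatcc
The Lrrn1 window holds 1 SOX-type match and 1 CAGCTG, the Lrrc4b window holds no match to these motifs, the Lrrc4 window holds 1 SOX-type match and the Flrt2 window holds CACGTG and a SOX-type match 1 base apart. No match overlaps another in these windows.

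RefSeq promoters were found for 26 of the 34 members, in 34 windows, with a median GC content of 55.3% against 52.7% over the 32851 windows of the table. On both strands, CAGCTG was in 4 of the 34 member windows (16.3% of all windows), CACGTG in 3 (7.15%), ACAAAG in 6 (18.7%), the forkhead motif TGTTTAC in 0 (3.65%) and the ETS motif CCGGAAGT in 0 (3.89%). The RE1 element, bound by the repressor REST at neuronal genes, was searched by its left and right parts: TTCAGCACC was in 1 window, that of Nlgn1 (0.371% of all), and GGACAGC in 0 (6.56%). A match is a description of these letters only.

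The other LRRN genes moved with Lrrn1. Lrrn2, a relative found amplified in some human gliomas, had 0.834, 4.93 and 1.09 normalized reads in AG, 673, 1483 and 1170.5 in BS and 296.2, 777 and 1204 in OB. Its log2 difference was 8.54 ± 0.64 (SE) in BS and 7.85 ± 0.64 in OB (adjusted p 2.91e-05 and 4.72e-05, limma), and no tumour library came near the AG range. Lrrn4, the family member linked to hippocampal memory, had 0.834, 0 and 1.09 in AG, 12.6, 182 and 228 in BS and 4.42, 123 and 68.5 in OB. BS_287 and OB_257 were its lowest tumour libraries. The difference was 5.73 ± 1.36 in BS (adjusted p 0.0122, limma) and 4.52 ± 1.36 in OB (adjusted p 0.0320), and the OB call was lost without AG_1 (adjusted p 0.0807), AG_2 (0.102), AG_3 (0.0745), OB_287 (0.0936) or OB_295 (0.0929) and with a pseudocount of 5 (0.0748).

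Lrrc4, which codes for NGL-2, a postsynaptic partner of netrin-G2 and a gene often silenced in human glioma, was higher in both tumour groups. It had 2.50, 1.97 and 1.09 normalized reads in AG, 96.4, 1495 and 983 in BS and 915, 784 and 1294 in OB. BS_287 was far below the other 5 tumour libraries and yet above every AG library. The log2 difference was 7.55 ± 0.90 (SE) in BS and 8.45 ± 0.90 in OB (adjusted p 3.60e-04 and 1.97e-04, limma). Lrrc4c, the netrin-G1 partner NGL-1, reached at most 5.71 normalized reads in any library, was not tested and has 7 RefSeq transcripts.

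**Figure D2:**
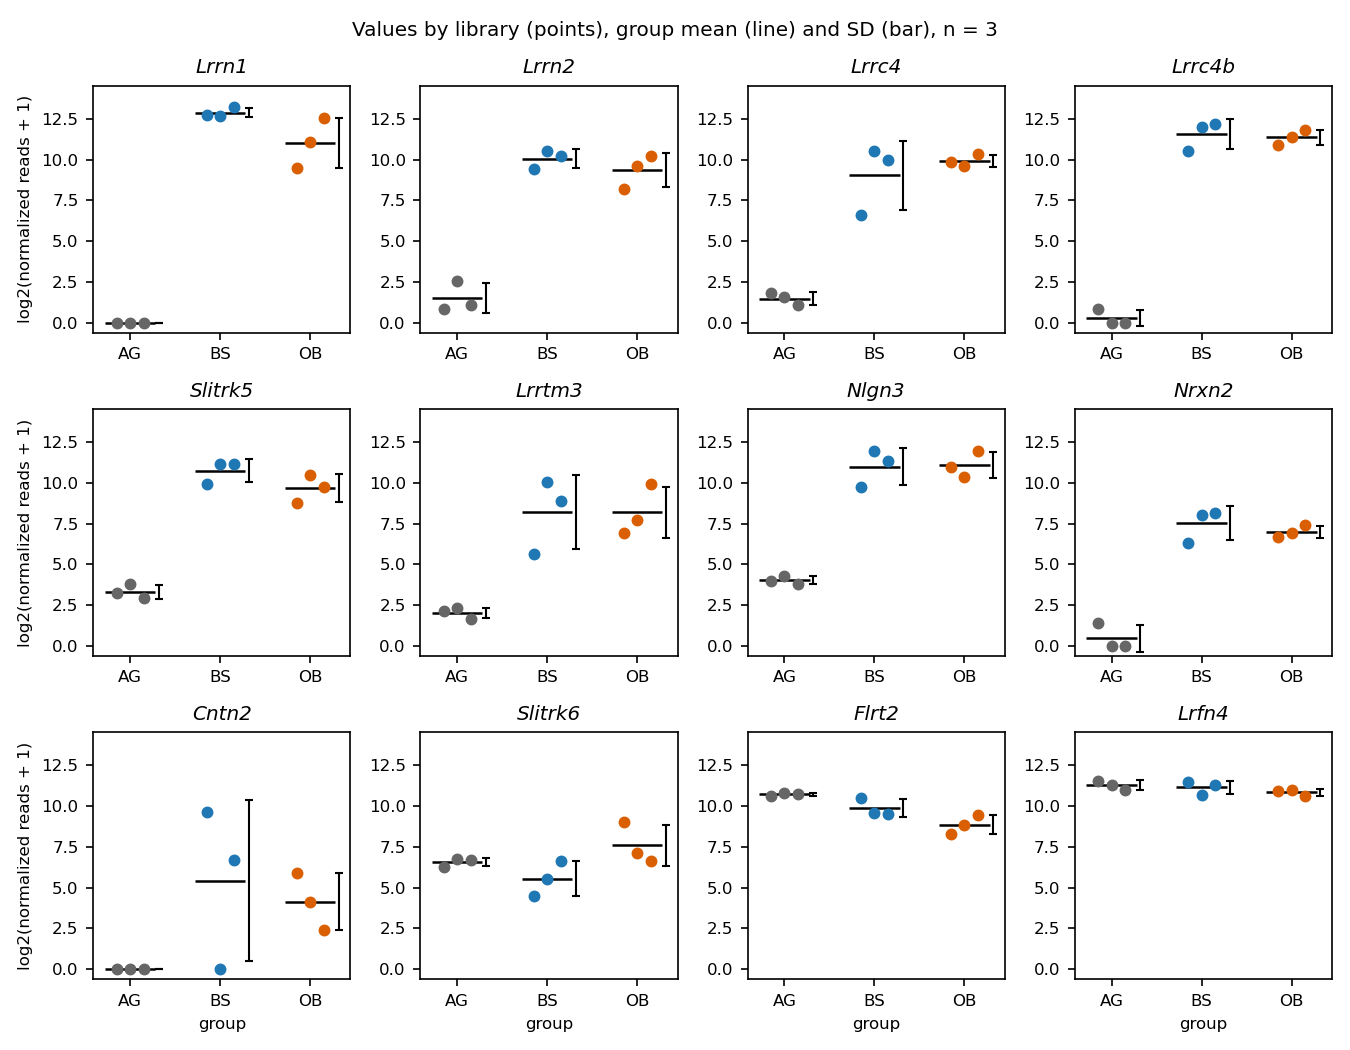
Normalized reads of 12 members in each library on a log2(normalized reads + 1) axis, by group, with points for libraries, lines for group means and bars for the SD (n = 3). For Lrrc4, Lrrn2, Lrrtm3, Slitrk5 and Nlgn3 all 6 tumour points lie above the 3 AG points, and for Lrfn4 the groups overlap.

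Among the genes of the neurexin system, neuroligins are the classical postsynaptic receptors of neurexins. Nlgn3 had 15.01, 18.7 and 13.1 normalized reads in AG, 843, 3883 and 2570.5 in BS and 1961, 1315 and 3969 in OB. Its means were 156-fold higher in BS and 155-fold higher in OB (log2 differences 6.95 ± 0.58 and 7.05 ± 0.58, SE, adjusted p 5.55e-05 and 5.24e-05, limma), and the ranges of the tumour groups overlapped. Nlgn2, the neuroligin of inhibitory synapses, had 170.1, 145 and 119 in AG, 341, 255 and 313 in BS and 329, 226 and 372 in OB. These are rises of 2.097-fold and 2.139-fold without overlap (adjusted p 0.0163 and 0.0154, limma). The BS call was lost without AG_2 (adjusted p 0.0562) or AG_3 (0.0710), and the OB call without AG_2 (0.0540), AG_3 (0.0686) or OB_295 (0.0511). Nlgn1, the neuroligin of excitatory synapses, had no reads in AG libraries, 18.5, 9.60 and 13.8 in BS and 12.2, 2.85 and 17.4 in OB. It was called higher in both (adjusted p 0.00135 and 0.00301, limma), by at least 4.80-fold and 3.71-fold, and it has 5 RefSeq transcripts.

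Nrxn2, a presynaptic neurexin, had 1.67, 0 and 0 normalized reads in AG, 78.8, 263 and 286.7 in BS and 101, 119.9 and 168 in OB. All 6 tumour libraries were above AG, with log2 differences of 7.04 ± 0.61 (SE) in BS and 6.52 ± 0.61 in OB (adjusted p 6.74e-05 and 1.02e-04, limma). Nrxn3 did not pass the filter: it had 0 reads in AG and was highest in BS_295 (39.5 normalized reads) and OB_295 (29.3). LRRTM proteins are postsynaptic ligands of neurexins at excitatory synapses. Lrrtm3 had 3.34, 3.94 and 2.18 normalized reads in AG, 49.5, 1043 and 479 in BS and 120.5, 207 and 980.3 in OB. The difference was 6.17 ± 1.13 (SE) in BS and 6.16 ± 1.13 in OB (adjusted p 0.00357 and 0.00348, limma), although the tumour libraries themselves differed by up to 21.1 times. Lrrtm2 had 107, 90.7 and 135 in AG, 332, 269.9 and 231 in BS and 1159, 258 and 435 in OB. Both tumour groups lay above AG without overlap, and the call was made in OB (2.20 ± 0.50, adjusted p 0.00941, limma) and missed in BS (1.32 ± 0.50, adjusted p 0.0703). BS was called without OB_257 (adjusted p 0.00886), the library with the highest Lrrtm2 value, without OB_287 (0.0319), without both BS_287 and OB_257 (0.0172), with upper-quartile rescaling (0.0428), in the fit of the compared groups only (0.00685) and in DESeq2 (0.0371).

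Slitrk genes code for ligands of LAR-type phosphatases with a cytoplasmic tail like that of Trk receptors. Slitrk5, linked to obsessive behaviour in mice, had 8.34, 12.8 and 6.53 normalized reads in AG, 977, 2257 and 2263 in BS and 433, 1435 and 842 in OB. Its means were 199-fold and 97.9-fold higher (log2 differences 7.43 ± 0.51 and 6.35 ± 0.51, SE, adjusted p 1.80e-05 and 4.55e-05, limma). Slitrk1, a gene studied in Tourette syndrome, had 3.34, 8.87 and 10.9 in AG, 99.8, 98.1 and 234 in BS and 380.2, 121 and 34.8 in OB. It was 18.7-fold and 23.2-fold higher (adjusted p 0.00644 and 0.00764, limma), with the highest and the lowest tumour value both in OB. Slitrk3, which acts at inhibitory synapses, had no reads in AG libraries, 13.4, 21.3 and 14.8 in BS and 8.84, 8.56 and 56.5 in OB, at least 5.68-fold and 8.47-fold higher (adjusted p 0.00204 and 0.00190, limma).

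The remaining Slitrk genes were not called in either comparison with AG. Slitrk6, known from the inner ear and eye, had 75.9, 105 and 101 normalized reads in AG, 21.0, 45.9 and 98.5 in BS and 515, 137 and 97.8 in OB, so that the groups overlapped (log2 differences -1.01 ± 0.71 and 1.02 ± 0.71, SE, adjusted p 0.302 and 0.292, limma). Slitrk2 had 0.834, 0 and 2.18 in AG, 0.839, 49.1 and 30.5 in BS and 1.11, 26.6 and 26.1 in OB. Its values in BS_287 and OB_257 were at the AG level and those in the other 4 tumour libraries were above it. The adjusted p was 0.132 in BS and 0.169 in OB, 0.0206 in BS without BS_287, and 6.86e-04 and 0.00128 without both libraries. DESeq2 on the recovered reads called it in both (adjusted p 0.00942 and 0.0248), and edgeR in BS (0.0489).

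Lrfn genes code for SALM proteins, which bind the scaffold PSD-95 or presynaptic phosphatases. Lrfn1 had 5.003, 11.8 and 3.27 normalized reads in AG, 249, 128 and 158 in BS and 92.8, 138 and 143 in OB. It was 26.6-fold and 18.6-fold higher (log2 differences 4.64 ± 0.48 and 4.16 ± 0.48, SE, adjusted p 1.71e-04 and 3.04e-04, limma). Lrfn3 had 211, 186 and 135 in AG, 529, 338 and 444 in BS and 192, 284 and 321 in OB. It was called in BS (2.46-fold, adjusted p 0.0104, limma) and not in OB (1.497-fold, adjusted p 0.170), where it was called without BS_287 and OB_257 (adjusted p 0.0442). Lrfn4 stood apart from the rest of the family as an abundant transcript of all 3 groups, with 3002, 2491 and 2018 normalized reads in AG, 2825, 1634 and 2458 in BS and 1937, 2020.4 and 1563 in OB (log2 differences -0.14 and -0.43, adjusted p 0.698 and 0.200, limma). Lrfn2 reached at most 9.52 normalized reads and was not tested.

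The LINGO family includes LINGO-1, a co-receptor of the Nogo receptor, which restrains axon growth and myelination. Lingo4 had 4.17, 1.97 and 3.27 normalized reads in AG, 41.9, 259 and 225 in BS and 8.84, 79.9 and 73.9 in OB. It was 55.9-fold higher in BS (adjusted p 0.00398, limma) and 17.3-fold higher in OB (adjusted p 0.0277), with BS_287 and OB_257 lowest among tumour libraries. The OB call was lost without AG_1 (adjusted p 0.0657), AG_2 (0.0913), AG_3 (0.0751), OB_287 (0.0810) or OB_295 (0.0862). Lingo1 and Lingo2 missed the filter and have 8 and 4 RefSeq transcripts. Lingo2 had its values in the opposite order, with 8.34, 3.94 and 8.71 in AG, 0.839, 0 and 1.97 in BS and 0 in all OB libraries, and it was called lower in both when the filter was dropped (adjusted p 0.0140 and 0.00279, limma).

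FLRT proteins bind latrophilins and UNC5 receptors and guide migrating neurons. Flrt2 was abundant in AG, at 1558, 1766 and 1717 normalized reads, against 1447, 758 and 730.1 in BS and 308, 457 and 706 in OB. Neither tumour group overlapped AG, and OB lay wholly below BS. The AG mean was 3.43-fold that of OB (log2 difference -1.85 ± 0.35, SE, adjusted p 0.00415, limma) and 1.72-fold that of BS (-0.85 ± 0.35, adjusted p 0.0931), and the BS difference was called without BS_287 (-1.17, adjusted p 0.0264) and without both BS_287 and OB_257 (0.00355). Flrt1 and Flrt3 overlapped between AG and BS and were not called in either comparison. Their values ran from 10.9 to 267 and from 2.21 to 26.6 normalized reads.

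**Figure D3:**
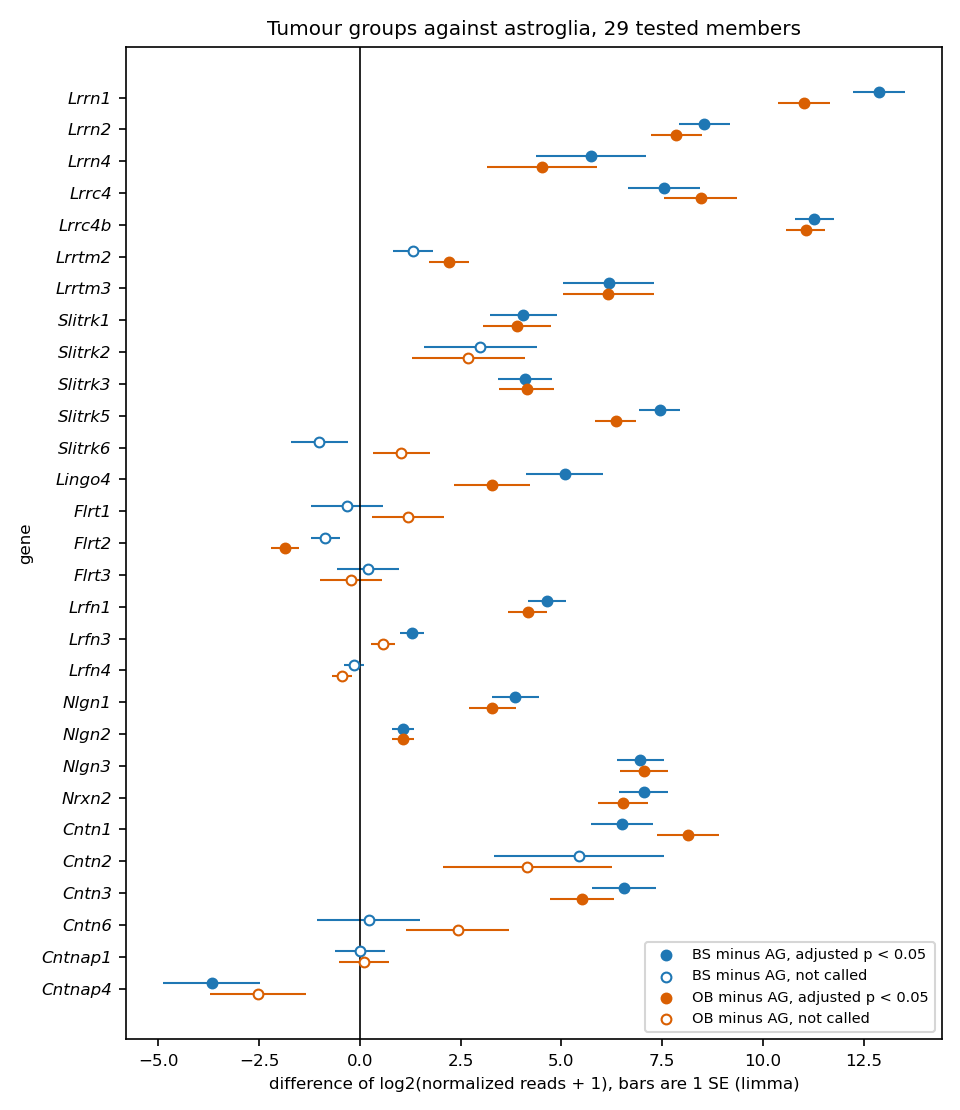
Log2 difference from AG of the 29 tested members in BS and OB, with bars of 1 SE, filled where called at an adjusted p under 0.05 (limma). Lrrn1 and Lrrc4b lie farthest right, between 11.02 and 12.87, and Cntnap4 in BS (-3.68) and Flrt2 in OB (-1.85) are the only members called lower.

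Contactins were higher where a call was made. Cntn1, a contactin of axons and of the oligodendrocyte lineage that binds the phosphatase Ptprz1, had no reads in AG libraries, 35.2, 189 and 108 in BS and 311, 108 and 664 in OB. The lower bounds of its rise were 38.1-fold in BS and 124-fold in OB (adjusted p 3.40e-04 and 1.02e-04, limma). Cntn3 had 0 in AG, 80.5, 131 and 73.9 in BS and 9.95, 79.0 and 109 in OB, at least 32.7-fold and 22.6-fold higher (adjusted p 4.07e-04 and 0.00101, limma). Cntn2, the axonal contactin TAG-1, had 0 in AG, 782, 0 and 102 in BS and 59.7, 16.2 and 4.35 in OB, a spread within which no call was made (adjusted p 0.0757 and 0.158, limma). Without BS_295, the tumour library at 0 reads, it was called in both (adjusted p 0.00195 and 0.0177), and DESeq2 on the recovered reads called it in both (5.29e-04 and 0.0248). edgeR called it in BS (0.0385) and the fit of the compared groups only in OB (0.0131). Cntn6 had 7.50, 4.93 and 6.53 in AG, 0, 39.5 and 13.8 in BS and 91.7, 12.4 and 46.7 in OB. Its OB libraries were all above AG without a call (adjusted p 0.171, limma), and OB was called without BS_287 (0.0348), in the fit of the compared groups only (0.0410) and in DESeq2 (0.0372).

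Cntnap1, the Caspr protein of paranodal junctions, did not separate the groups: it had 379, 400.1 and 364 normalized reads in AG, 514, 143 and 758 in BS and 809, 283 and 305 in OB (log2 differences 0.01 and 0.11, adjusted p 0.995 and 0.907, limma). Cntnap4, which is found at synapses of interneurons, had 113, 104 and 96.9 in AG, 9.23, 1.07 and 25.6 in BS and 2.21, 63.8 and 28.3 in OB. Every tumour library was below AG, and BS was called lower (8.74-fold, -3.68 ± 1.19, SE, adjusted p 0.0426, limma), while OB was not (3.33-fold, adjusted p 0.134). The BS call is a narrow one: it was lost without AG_1 (adjusted p 0.112), AG_2 (0.107), AG_3 (0.103), BS_287 (0.0719), BS_295 (0.119) or OB_295 (0.0573), in edgeR (0.0626) and with upper-quartile rescaling (0.0523).

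Between the tumour groups no member was called (limma, 0 of 29), and 0.0% of all genes were. Unadjusted p-values were below 0.05 for 4 members, Flrt2, Lrfn3, Lrrn1 and Slitrk6, where 9.64% of all genes were. edgeR called 0 members (3 at an unadjusted p below 0.05) and DESeq2 called 0 (5 at an unadjusted p below 0.05). The largest of these differences were -1.86 ± 0.64 (SE, OB minus BS, adjusted p 0.441, limma) for Lrrn1 and 2.03 ± 0.71 for Slitrk6 (adjusted p 0.441). OB lay below BS without overlap for 3 tested members, Flrt2, Lrfn3 and Lrrn1, where 4.63% of all genes did, and above BS for 0, where 5.36% did.

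Among the 17 members higher in both tumour groups, the lowest of the 6 tumour values was in OB_257 for 7 members and in BS_287 for 6, where these libraries held the lowest value for 26.0% and 21.5% of the 1241 genes called higher in both. The highest value was in BS_295 for 5, BS_296 for 5, OB_295 for 4, BS_287 for 2, OB_257 for 1 and OB_287 for 0, where over the 1241 genes it was in these libraries for 12.8%, 15.2%, 17.6%, 21.1%, 22.6% and 10.7%. The spread differed by gene: Nlgn2 varied from 226 to 372 normalized reads across the tumour libraries, and Lrrn4 from 4.42 to 228. The part of BS_287 and OB_257 in these values was not tested further than by leaving them out.

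Levels can be compared between genes only per length, here as normalized reads per kilobase of transcript for the 20 members with 1 RefSeq transcript, with lengths from GENCODE transcripts. In AG the highest level was that of Lrfn4 (858 ± 169, SD, n = 3), followed by Flrt2 (237 ± 15.4) and Cntnap1 (70.1 ± 3.36), which overlapped Lrfn3 (61.5 ± 13.4) within the SD. In BS the order was Lrrn1 (2056 ± 435), Lrrc4b (1238 ± 610) and Lrfn4 (790 ± 209). In OB it was Lrrc4b (987 ± 303), Lrrn1 (788 ± 728) and Lrfn4 (631 ± 83.5). The intervals of mean ± SD of neighbours in these tumour orders overlapped. Such overlap is not a test, and differences between genes within the same library were not tested. Below them came Lrrn2 (323 ± 119), Nlgn3 (287.3 ± 180.1) and Lrrc4 (237 ± 196) in BS and Nlgn3 (285 ± 163), Lrrc4 (276 ± 73.3) and Lrrn2 (221 ± 133) in OB, whose intervals overlapped likewise.

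**Figure D4:**
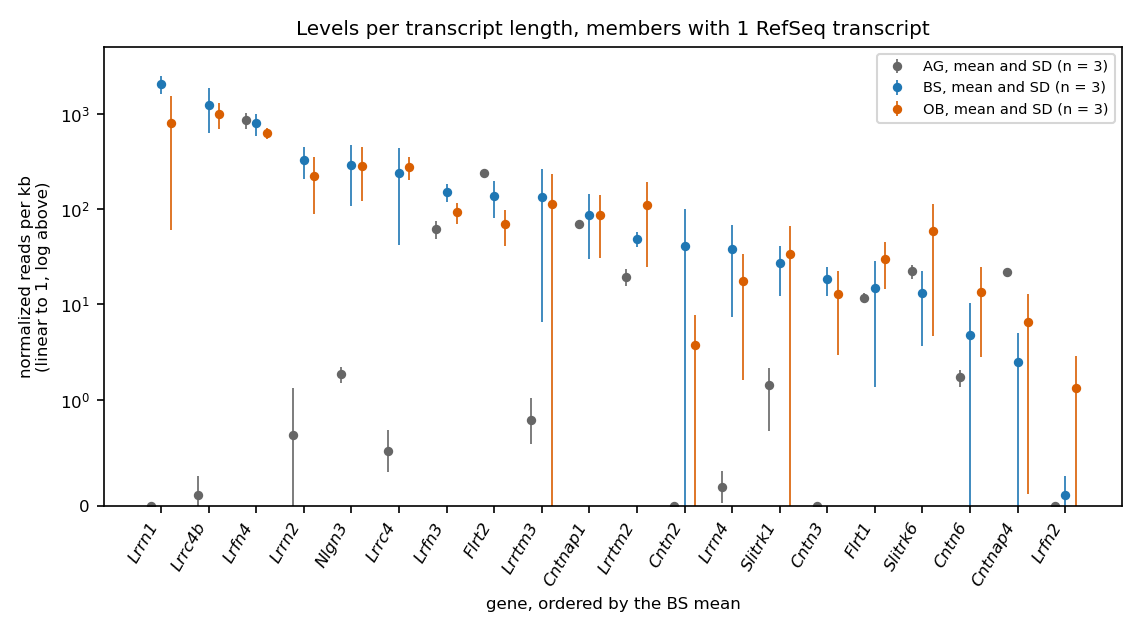
Normalized reads per kilobase of transcript of the 20 members with 1 RefSeq transcript, as mean and SD of 3 libraries per group, on an axis that is linear near 0 and logarithmic above. Lrfn4 lies between 631 and 858 in all groups, and Lrrn1 goes from 0 in AG to 2056 in BS.

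Several members lie inside or beside other genes. In the order of protein-coding genes in RefSeq, Cntn2 and Lrrn2 are separated on chromosome 1 by Nfasc alone, Slitrk1, Slitrk6 and Slitrk5 follow each other on chromosome 14, and Cntn3, Chl1 and Cntn6 follow each other on chromosome 6 with 4 protein-coding genes between Cntn6 and Lrrn1. Calls differed among neighbours: Slitrk1 and Slitrk5 were called higher in both tumour groups while Slitrk6, between them, was called in neither. Nfasc, which codes for the node protein neurofascin, had no reads in the astroglia, 10.9, 3.20 and 0.985 normalized reads in BS and 183, 3.81 and 20.6 in OB (adjusted p 0.190 and 0.0161, limma). Chl1, a relative of L1, had 29.2, 32.5 and 44.6 in AG, 13.4, 1512 and 3741 in BS and 11.1, 162 and 4406 in OB, with BS_287 and OB_257 below AG and no call.

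In the GENCODE annotation of GRCm38, 7 members lie within a protein-coding gene on the opposite strand: Flrt1, Flrt3, Lrfn1, Lrfn4, Lrrc4, Lrrtm2 and Lrrtm3. The library kit marks strand, but the strand setting of the counting is not stated, so reads of the host cannot be told apart from those of the member. Snd1, the host of Lrrc4, had a mean of 6722 normalized reads in AG against 6332 for BS and 7884 for OB (adjusted p 0.690 and 0.343, limma), and the host of Lrfn1, Samd4b, had 4463, 4665 and 4022, with no call. Beside these host levels in AG, Lrrc4 and Lrfn1 had means of 1.85 and 6.70 there. The part of host reads in the values of members was not tested. The host of Lrrtm2, Ctnna1 (alpha-catenin), was lower in both tumour groups (18651 in AG, 6118 in BS and 6904 in OB, adjusted p 2.65e-04 and 4.70e-04), the opposite direction to Lrrtm2.

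The binding partners of these proteins, taken from lists drawn up by textbook role, did not all move in the same way. Their counts stand beside the shares over all genes tested, 15.6% higher and 19.5% lower in BS and 16.0% and 19.0% in OB. Values of single partner genes are group means, and for several the SD within a tumour group was as large as the mean. Among LAR-type phosphatases and their other ligands, 1 of 6 tested genes was higher and 2 were lower in each comparison (median log2 difference -0.89 in BS and -1.25 in OB). Ptprf, which codes for LAR itself, the receptor of Lrrc4b, rose from 499 ± 30.7 normalized reads in the astroglia to 5571 ± 175 in BS and 5492 ± 1504 in OB (SD, n = 3, adjusted p 8.42e-06 and 9.54e-06, limma). Gpc4 and Sdc2, heparan sulfate proteoglycans, fell from 3442 to 183 and 458 and from 4695 to 1194 and 637. Of the neurexin and neuroligin partners, 4 of 13 were higher and 0 lower in BS (median 3.11), and 5 were higher and 1 lower in OB (median 2.096, or 2.51 with the 4 genes at 0 reads in AG set at their bound). The bound is a ratio of group means and can exceed a fitted difference, so the second median is not the more cautious value. The genes called higher are described next. They included the secreted bridge Cbln1, with means of 7.43 normalized reads in AG, 213 ± 223 in BS and 477 ± 546 in OB (SD, n = 3). Among them were also the neurexophilin Nxph1 (0, 232 ± 231 and 317 ± 283) and C1ql1 (110.3, 1999 ± 1109 and 1017 ± 1179). In OB, Grid1 was also higher (0.556 and 371) and Nxph3 was lower (235 and 3.17).

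Of the contactin partners, 3 of 8 were higher in BS (median 2.90, or 2.19 with the 3 genes at 0 reads in AG set at their bound), and 4 were higher and 2 lower in OB (3.63, or 3.55). Kcna2, a potassium channel of axons, had 0 reads in AG and means of 2472 ± 2237 in BS and 4687 ± 4974 in OB (SD, n = 3). Ptprz1 had 0, 2133 ± 2531 and 1524 ± 1286, and the matrix protein gene Tnr had 0.641, 582 ± 540 and 2495 ± 1125. Tnc, tenascin-C, was lower in OB (332385 and 3706, adjusted p 0.0179, limma) and had a mean of 12771 in BS without a call (adjusted p 0.168). In the Nogo receptor list, 3 of 6 were higher and 0 lower in both (medians 3.11 and 1.73): Omg, a myelin ligand of the receptor (0.278, 581 and 1609), Rtn4rl1 (1.89, 131 and 165) and the co-receptor Tnfrsf19 (1.25, 102 and 35.7). Of the FLRT partners, 1 of 4 was higher in BS and 2 in OB (medians 1.33 and 1.40), with the latrophilin Adgrl1 at 3065, 9366 and 10215 and Tenm1 called in OB alone (0 in AG and 21.2 in OB).

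Other immunoglobulin adhesion genes of synapses gave 5 of 11 higher and 1 lower in BS (median 4.04), and 7 higher and 1 lower in OB (median 2.14). Igsf21 had means of 0, 571 ± 868 and 387 ± 88.5 in AG, BS and OB (SD, n = 3). Its fitted log2 difference was nonetheless smaller in BS (7.63) than in OB (8.57). Ncam2 had 0, 403 ± 426 and 729 ± 484, Sdk2 had 2.01, 869 ± 1166 and 396 ± 449, and Sdk1 had 14.5, 617 ± 617 and 309 ± 131. Cadm4, an adhesion gene of myelinating cells, had 126, 2748 ± 1359 and 4672 ± 1337. Nectin3 was the gene that fell (2422, 409 and 362). Postsynaptic scaffolds were evenly divided, with 2 of 9 higher and 2 lower in BS (median -0.37) and 3 higher and 3 lower in OB (median -0.24). Shank3 (17.99, 711 and 429) and Shank1 (3.66, 37.7 and 53.8) were higher in both, and Dlg3 (23.5, 2.61 and 1.83) and Magi2 (35.5, 4.06 and 2.74) were lower in both.

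**Figure D5:**
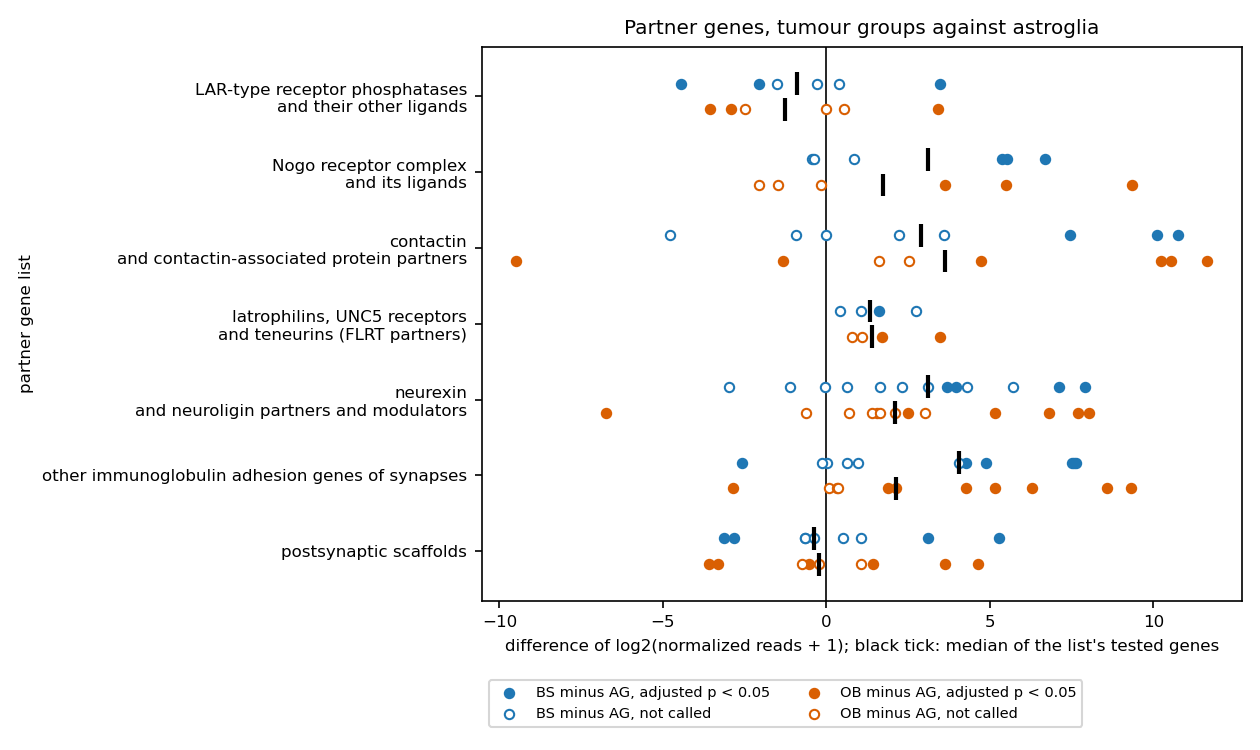
Log2 differences from AG of the tested genes of 7 partner lists in BS and OB, filled where called at an adjusted p under 0.05 (limma), with a black tick at the median of each list. The medians run from -1.25 for LAR-type phosphatases and ligands in OB to 4.04 for other immunoglobulin adhesion genes in BS.

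Markers of cell types also differed between the groups, with some lists higher in the tumour groups and others higher in AG. In these bulk samples, fewer cells of a type and less RNA per cell cannot be told apart. The summed normalized reads of 9 oligodendrocyte precursor markers ranged over AG libraries from 25.8 to 30.6, over BS from 69774 to 125531 and over OB from 55795 to 120558. Of these genes, 6 of 9 tested were higher in BS and 8 of 9 in OB, and Olig2 and Ptprz1 were at 0 reads in AG. Pdgfra was called in neither comparison (adjusted p 0.551 and 0.590, limma). Neuron markers (10 of 14 in the table) summed to 1070 to 1099, 5075 to 6953 and 5270 to 10069, with 5 of 7 tested genes higher in both and Snap25, Rbfox3 and Gad1 at 0 in AG. Snap25 and Rbfox3 were at most 6.71 and 13.4 in any tumour library. The part of these cell types in the differences was not tested.

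The astrocyte list, which checks the label of AG, (8 of 10 in the table) summed to between 8602 and 8693 in AG, between 17391 and 30952 in BS and between 6749 and 34933 in OB. Its defining genes Gfap, Aqp4 and Aldh1l1 were at or below 5.91 normalized reads in every AG library, and they have several RefSeq transcripts. Of the other genes of the list, Gja1 was at 4961 to 5396 there, Sox9 at 2328 to 2947 and Slc1a3 at 753 to 855 normalized reads. Aldoc was at or below 1.09 and S100b at or below 27.2 in every AG library. Gja1 was lower than in AG in every tumour library. Slc1a3 (11447 to 25665) and Sox9 were above AG in every BS library without a call, and both overlapped AG in OB. With genes on both sides, the list does not settle the label of AG. Pericyte, smooth muscle and mesenchymal markers (8 of 9 in the table) summed to between 94746 and 108636 in AG, between 48.6 and 107 in BS and between 114 and 227 in OB. Those of endothelial cells (4 of 6) summed to 921 to 1035, 28.6 to 242 and 11.1 to 212, and those of microglia (4 of 8) to 2700 to 2914, 629 to 759 and 394 to 744. The part of these markers, highest in AG, in the comparisons was not tested.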

How the data were processed

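RNA from 3 libraries each of AG, BS and OB was measured by sequencing, per the labels. The authors deposited 1 table of signal values with 16260 rows of RefSeq accessions. DESeq2 1.20.0, Subread 1.6.2 with featureCounts, HISAT2 2.1.0, bcl2fastq 1.8.4 and the build mm9 are named, without roles, per the submitters' processing notes. The strand setting and the annotation were not given in the sources used here. Each signal value is whole reads over 1 size factor per library: 100% of the authors' values came out whole within 0.05 reads. Transcripts were named from RefSeq (16202) or GENCODE (41) tables and summed per symbol, and 17 unnamed rows, with 0.464% of the values, were left out of the tests.

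limma 3.58.1 (R 4.3.3) was fitted to log2(value + 1) of all 9 libraries, with a mean per group, a variance trend and two-sided tests, over 10576 genes with at least 10 normalized reads in 3 libraries. Adjustment was by Benjamini-Hochberg over all of these genes, with calls at an adjusted p under 0.05. Differences on this scale understate the change of low genes. Alternatives were other pseudocounts, filters, scalings and fits, edgeR 4.0.16 and DESeq2 1.42.0 on the recovered reads, and each library left out. The scripts were tested on simulated data.

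A group at 0 reads was set at a floor of 3 reads per library (2.91 normalized reads in AG), and folds against 1 to 3 reads have exact (Clopper-Pearson) 95% intervals. Both cover counting error alone, because reads lack molecular identifiers and need not be separate molecules. Folds against the floor are ratios of group means, whereas fitted differences are differences of mean log2 values, so that a bound can exceed the fitted difference. Members called in any comparison are given with all their values, others by range or with values, and partner genes as up to 4 called genes of largest difference per list, not all of which are reported here. The members and lists were chosen with earlier results of these data known. Nfasc and Chl1 were named as neighbours of members.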

Additional observations from a re-analysis of the deposited data

How the results depend on the processing

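The counts of members called higher stayed within 16 to 21 in BS and 16 to 21 in OB under other pseudocounts, filters, scalings, fits and tools, and within 17 to 19 and 15 to 19 with 1 library left out. The count called lower in BS, 1 as reported, was 2 without a filter and without both BS_287 and OB_257 (an alternative added after the data were seen), 0 with upper-quartile rescaling and in edgeR, and 0 to 1 with 1 library left out. In OB the 1 lower member became 2 without a filter. No member difference that was called, as reported or in the alternative, changed sign. Changes of sign where neither fit made a call were not counted. Of the 19 calls in each comparison, 17 in BS and 16 in OB held in every alternative that tested them. With 3 libraries a group and tumour libraries that vary widely, members such as Cntn2 and Slitrk2 miss the threshold at large differences.

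The titles BS_287 and OB_287 share a number, as do BS_295 and OB_295, and the labels do not say that it marks a shared source. The deviations of these pairs from their group means correlated at 0.0690 and 0.299. For the pairs of unlike number, BS_287 with OB_295 and BS_295 with OB_287, the values were -0.412 and -0.0367. Whether the number marks a shared source was not tested. With the number as a replicate block, members called in OB against BS stayed at 0 in both fits, while over all genes 131 were called in the fit of 9 libraries and 0 in that of the 4 numbered libraries. Over all genes OB against BS gave 0 calls as reported, 237 in DESeq2, 96 without OB_287 and 69 without both BS_287 and OB_257.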
